A study of Mus musculus with 6 samples.

Results

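The genes described here are 34 genes of the lysosome, the acidic organelle in which cells break down proteins, lipids and glycans. They were taken by symbol from a fixed list and kept when at least 2 of the 6 libraries had a normalized count of 10 or more. All 34 were present and passed, among 19713 genes in the table and 15287 that passed the same filter. They comprise 8 cathepsins, 14 other hydrolases with their activators and partners, 7 membrane proteins and regulators, and 5 genes of the proton pump.

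The libraries came from mouse embryonic stem cells of C57Bl/6 blastocysts, in 3 genotypes with 2 libraries each. WT cells carry unaltered Thap1, C54Y cells are homozygous for a missense change in THAP1 (Thap1 C54Y/C54Y), and KO cells lack exon 2 of Thap1 (Thap1 ΔExon2, labelled THAP1 -/-). THAP1 is a zinc finger transcription factor. All cells were grown with serum (15%) and leukemia inhibitory factor at 1000 units per ml on irradiated mouse embryonic fibroblasts, whose RNA can enter a library. The labels number the libraries replicate 1 and replicate 2 and do not say whether they came from separate cultures or clones. P-values therefore measure only the spread between these libraries, in the main fit only what is left after the difference between replicate numbers is removed.

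Lysosomal hydrolases are made as inactive precursors and mature in the acid interior of the organelle. The vacuolar proton pump (V-ATPase) makes that interior acid, and heavily glycosylated proteins such as LAMP1 and LAMP2 line the membrane. The transcription factor TFEB and its relatives bind a palindromic DNA element, known as CLEAR, near the start of many lysosomal genes and raise their transcription. Endoderm of the early embryo, into which embryonic stem cells can differentiate, takes up and digests material from outside through its lysosomes.

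Library depth ranged from 31774656 to 46772996 reads. Stem cell markers were abundant, with Pou5f1 between 32384 and 122969 normalized counts. Thap1 itself had normalized counts of 433 and 701.3 in WT, against 2253 and 2533 in C54Y and 1975 and 1687 in KO, a count over the whole gene that checks neither the deletion nor the missense change. The 12 fibroblast markers summed to between 5989 and 8133 in the replicate 1 libraries and between 28640 and 33935 in those of replicate 2. Each mutant was compared with WT within a replicate number.

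The regulatory sequence near the start of 28 of the 34 genes could be read from RefSeq windows (GRCm38.p6) that run from 250 bases before a start site to 50 after it. Searched on both strands, the core of the CLEAR element, CACGTG, was in the windows of 10 of these 28 genes (35.7%), against 8.09% of all genes with a window. The longer TCACGTGA, which contains CACGTG, was in 6 (21.4% against 1.12%). The same letters with a further G before and C after them were in 0 (against 0.37%). TNNGGGCA, the letters of the THAP1 recognition motif, was in 4 (14.3% against 15.7%), namely Atp6v0d1, Lamp2, Lipa and Smpd1. A match describes letters in this window and is not evidence of binding. The 5 windows printed here belong to the 2 genes called in both mutants, Ctsl and Galc, and to 3 genes with CACGTG that were called in neither, the pump subunits Atp6v1a and Atp6v0d1 and the membrane gene Lamp1. Capitals mark every CACGTG, TCACGTGA or TNNGGGCA on either strand.
Ctsl (chr13:64370471-64370770, minus strand): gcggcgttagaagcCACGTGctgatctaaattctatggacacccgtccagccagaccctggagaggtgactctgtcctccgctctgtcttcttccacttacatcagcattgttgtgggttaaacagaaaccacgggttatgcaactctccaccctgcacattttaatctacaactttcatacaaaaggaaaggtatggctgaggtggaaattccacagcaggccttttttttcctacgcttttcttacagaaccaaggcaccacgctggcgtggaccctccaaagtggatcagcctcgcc
Galc (chr12:98259410-98259709, minus strand): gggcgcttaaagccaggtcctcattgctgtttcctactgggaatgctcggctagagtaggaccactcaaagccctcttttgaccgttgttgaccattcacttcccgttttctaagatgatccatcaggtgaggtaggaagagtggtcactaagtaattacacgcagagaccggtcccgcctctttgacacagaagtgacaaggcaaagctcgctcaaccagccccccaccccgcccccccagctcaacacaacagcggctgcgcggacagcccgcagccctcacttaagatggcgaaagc
Atp6v1a (chr16:44139210-44139509, minus strand): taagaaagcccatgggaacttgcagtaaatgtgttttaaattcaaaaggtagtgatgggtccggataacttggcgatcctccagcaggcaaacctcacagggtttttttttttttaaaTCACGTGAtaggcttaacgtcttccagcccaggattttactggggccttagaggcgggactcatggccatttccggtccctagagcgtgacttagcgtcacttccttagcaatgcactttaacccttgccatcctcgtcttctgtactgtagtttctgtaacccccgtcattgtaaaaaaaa
Atp6v0d1 (chr8:105566015-105566314, minus strand): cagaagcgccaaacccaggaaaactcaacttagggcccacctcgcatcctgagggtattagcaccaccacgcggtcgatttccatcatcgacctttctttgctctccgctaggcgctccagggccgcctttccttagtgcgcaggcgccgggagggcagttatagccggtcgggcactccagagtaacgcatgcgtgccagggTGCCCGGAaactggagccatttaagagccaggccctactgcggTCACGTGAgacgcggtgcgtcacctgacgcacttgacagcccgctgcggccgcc
Lamp1 (chr8:13158911-13159210, plus strand): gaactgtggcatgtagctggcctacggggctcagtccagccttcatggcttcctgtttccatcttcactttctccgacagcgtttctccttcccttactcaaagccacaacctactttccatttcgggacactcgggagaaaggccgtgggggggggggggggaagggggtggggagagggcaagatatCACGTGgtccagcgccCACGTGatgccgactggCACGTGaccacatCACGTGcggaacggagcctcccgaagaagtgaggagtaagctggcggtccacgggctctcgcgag
The Lamp1 window held 4 copies of CACGTG, those of Atp6v1a and Atp6v0d1 held 1 each, extended to TCACGTGA and with the CACGTG beginning 131 and 3 bases before the start site, and that of Ctsl held 1, beginning 236 bases before its start site. Atp6v0d1 also held TNNGGGCA on the other strand, 47 bases before its start. Galc held none. The main Ctsl transcript in GENCODE M21 begins 214 bases downstream of that RefSeq start site, so its own start lies outside the window shown.

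Levels were compared between genes as normalized counts per kilobase of the main GENCODE transcript. In WT the most abundant was the aspartic protease gene Ctsd at 7189 ± 533 per kilobase (SD, n = 2), an uncertain level because 38.0% of its exonic bases overlap Gm49369 on the same strand. Ctsl, which encodes a cysteine protease, followed at 6739 ± 1306, then the membrane genes Lamp1 at 6583 ± 460 and Cd63 at 6126 ± 477. Neighbours in this order did not differ beyond their spread. Psap, the precursor of the saposins that help hydrolases reach their lipids, was at 4416 ± 423. The rarest were Ctsh, an aminopeptidase gene, at 111 ± 42.2 and Galc, the galactosylceramidase gene, at 106 ± 51.9, and these too did not differ beyond their spread. In KO the level of Ctsl was 4489 and 3410 per kilobase in replicates 1 and 2, below that of Psap at 4893 and 8573.

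**Figure D1:**
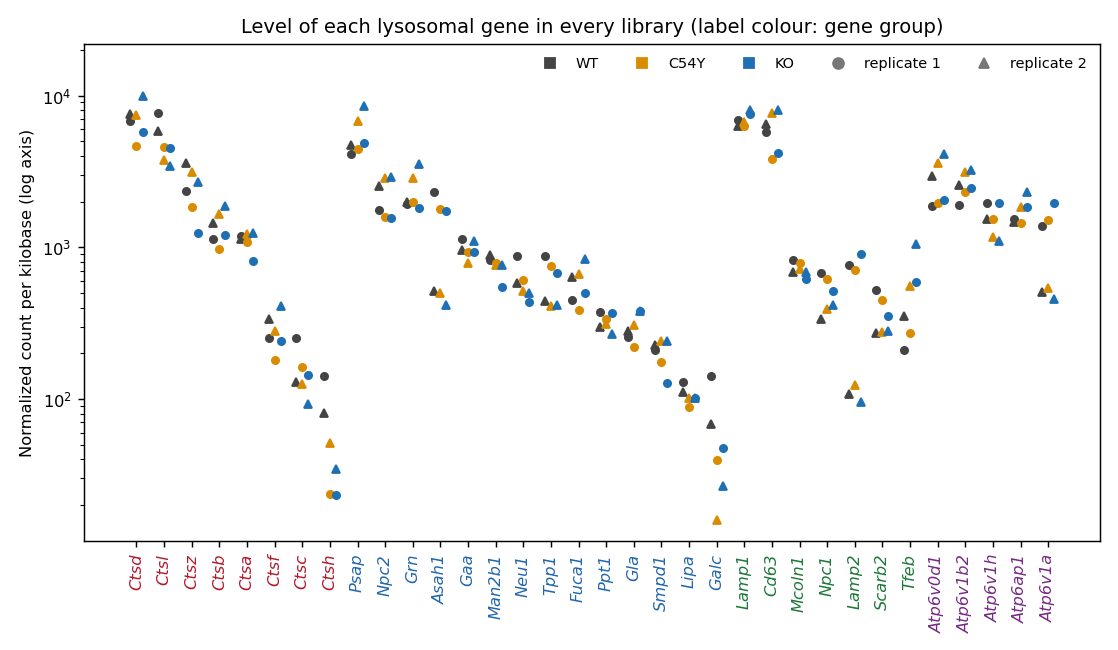
Normalized count per kilobase (log axis) of each of the 34 genes in every library, ordered within each gene group by the WT mean, with colour for genotype and marker shape for replicate number. Ctsd, Ctsl, Lamp1 and Cd63 led in WT, Galc and Ctsh were lowest, and Lamp2, Asah1 and Atp6v1a split by replicate number rather than by genotype.

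KO was set against WT to read the effect of losing THAP1. The lysosomal genes did not move as a body: 3 cathepsin genes and Galc fell, Tfeb and Psap rose, and the other 28 were not called. Those 6 of 34 stand beside 16.3% of all tested genes called by limma with the replicate block (8.9% higher, 7.41% lower), so the share of members called was near that of all genes. The members' median log2 fold change was -0.06, with 0.03 over all tested genes. Without the replicate block limma called 0 genes of the 15287 (0%), and 2 members had an unadjusted p under 0.05, beside 1049 of all tested genes.

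Tfeb encodes the transcription factor that drives many lysosomal genes and showed the largest rise among the members. Normalized counts were 481 and 813 in WT (replicates 1 and 2), against 627 and 1267 in C54Y and 1351 and 2394 in KO. Both KO libraries lay above both WT libraries, and within a replicate number KO was 2.80 and 2.94 times WT. The log2 fold change was 1.52 ± 0.16 (SE; adjusted p = 0.000975). In C54Y it was 0.51 ± 0.16, which was not called (adjusted p = 0.219), although C54Y was above WT within both replicate numbers, and limma called it without KO replicate 1 or KO replicate 2. KO against C54Y stood at 1.01 (95% interval 0.64 to 1.38; adjusted p = 0.0586), with both KO libraries above both C54Y libraries. That difference was called by DESeq2, and by limma without WT replicate 1, WT replicate 2, KO replicate 1 or KO replicate 2.

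Of the 8 cathepsins, 3 were called lower in KO and 0 higher, beside 7.41% and 8.9% of all tested genes. Their median was -0.42, with 0.03 over all tested genes. Within replicate 1 the cathepsin median was -0.66, and within replicate 2 it was -0.15, against 0.12 and -0.02 over all tested genes. Ctsl stood at 15102 and 11461 normalized counts in WT, against 8980 and 7360 in C54Y and 8847 and 6722 in KO. Every mutant library lay below both WT libraries, and KO was 0.586 and 0.587 of WT within the replicate numbers. The fall was -0.77 ± 0.12 in KO, with an adjusted p of 0.00486, and C54Y gave -0.69 ± 0.12 with an adjusted p of 0.0347. The KO call held with each of the 6 libraries left out in turn (highest adjusted p = 0.0107). The C54Y call was lost without WT replicate 2 (0.101), C54Y replicate 1 (0.268) or C54Y replicate 2 (0.481). Between the mutants Ctsl differed by -0.08 (95% interval -0.36 to 0.20).

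Ctsh had 228 and 131 normalized counts in WT, against 38.1 and 83.1 in C54Y and 37.4 and 56.0 in KO. All mutant libraries were below both WT libraries, but the size of the difference depended on the replicate number, with KO at 0.171 of WT within replicate 1 and 0.435 within replicate 2. The KO change was -1.87 ± 0.43 (adjusted p = 0.0203). Without WT replicate 1 the adjusted p was 0.168, so that call was lost. C54Y at -1.58 was not called by limma (adjusted p = 0.141) or edgeR (0.129) but was by DESeq2 (0.0200), and limma called it without WT replicate 2 (0.00186), KO replicate 1 (0.0311) or KO replicate 2 (0.0422). Ctsz, which encodes a carboxypeptidase, had 3358 and 5188 normalized counts in WT, against 2662 and 4502 in C54Y and 1802 and 3855 in KO. Its groups overlapped, and the order WT, C54Y, KO appeared within each replicate number. The KO fall of -0.66 ± 0.16 (adjusted p = 0.0230) was lost without WT replicate 1 (0.185), and C54Y stood at -0.27 (adjusted p = 0.575).

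The abundant protease genes Ctsd and Ctsb were not called in either mutant. Ctsd had 14489 and 16094 normalized counts in WT, against 9927 and 15807 in C54Y and 12303 and 21072 in KO. Its KO libraries lay on either side of WT, with a fold change of 0.08 (95% interval -0.29 to 0.44). Ctsb, a cysteine protease gene, had 5369 and 6847 in WT, against 4639 and 7881 in C54Y and 5730 and 8898 in KO. Its groups overlapped, at 0.24 in KO (95% interval -0.09 to 0.57) and -0.00 in C54Y (-0.33 to 0.33). The intervals for these genes do not reach the fall measured for Ctsl in KO. Ctsc, which activates serine proteases of blood cells, stood at -0.64 in KO (adjusted p = 0.0868), and Ctsa and Ctsf at -0.21 and 0.12 (adjusted p = 0.465 and 0.713).

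**Figure D2:**
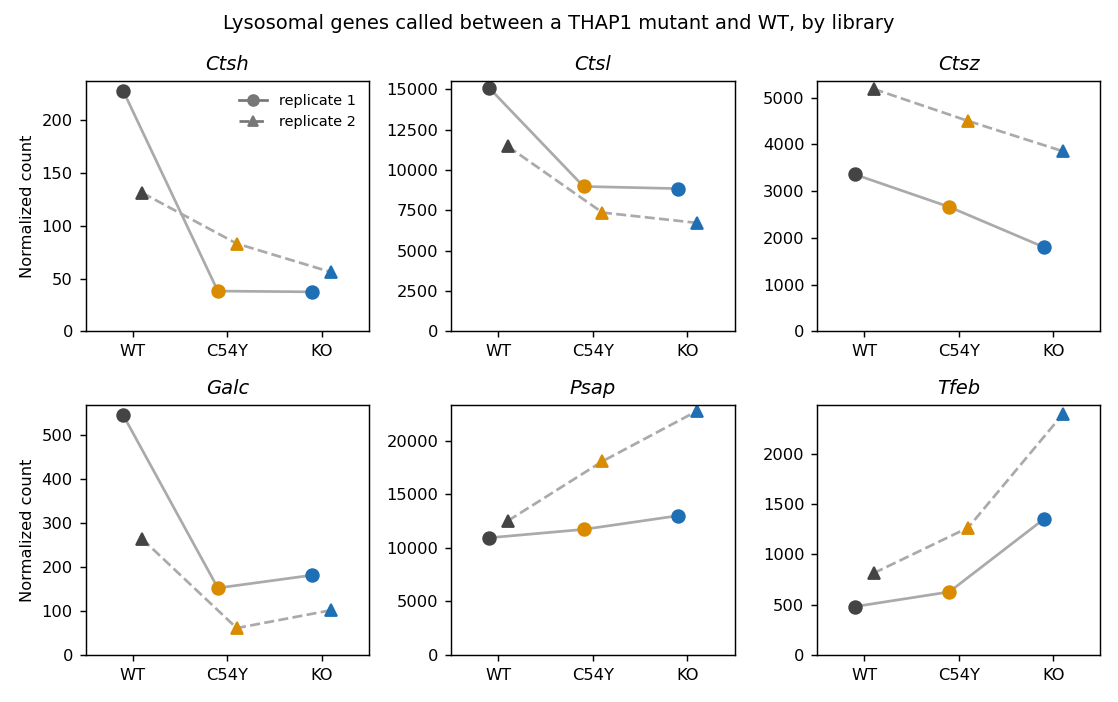
Normalized counts in each library (y axis from 0) of the 6 lysosomal genes called between a mutant and WT, with lines joining libraries of the same replicate number. Ctsl and Galc were lower in all mutant libraries than in WT, and Tfeb reached 1351 and 2394 in KO against 481 and 813 in WT.

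Among the 14 other hydrolases and activators, Galc fell in both mutants and Psap rose in KO. Of all tested genes 16.3% were called in KO and 1.36% in C54Y. Galc cleaves galactosylceramide, a lipid of myelin. Its normalized counts were 545 and 264 in WT, against 152 and 61.1 in C54Y and 182 and 102 in KO. Galc overlaps Gm47439 on the opposite strand, and without a stated strand setting their reads cannot be told apart. No mutant library reached the lower WT value, and C54Y was 0.282 and 0.237 of WT within the replicate numbers. The fall was -1.95 ± 0.25 in C54Y, with an adjusted p of 0.00849, and KO gave -1.47 ± 0.25 with an adjusted p of 0.00638. The KO call held with each library left out (highest adjusted p = 0.0127), while that in C54Y was lost without C54Y replicate 2 (0.0595). KO against C54Y was 0.48 for Galc (95% interval -0.08 to 1.05; adjusted p = 0.397).

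Psap had 10940 and 12528 normalized counts in WT, against 11724 and 18085 in C54Y and 13001 and 22777 in KO. Both KO libraries were above both WT libraries, by a factor of 1.19 within replicate 1 and 1.82 within replicate 2. The rise of 0.56 ± 0.16 (adjusted p = 0.0423) rested on the settings: it was lost with TMM scaling factors (adjusted p = 0.0864) and without WT replicate 2 (0.432), C54Y replicate 2 (0.0536) or KO replicate 2 (0.0667). With TMM factors 1 member was called up in KO and 5 down, since Psap was lost and the sialidase gene Neu1 (-0.70) was gained. With the deposited scaling Neu1 stood at -0.62 and was not called by limma (adjusted p = 0.0662), while edgeR (0.0492) and DESeq2 (0.0379) called it. Its KO libraries (1084 and 1228) lay below those of WT (2161 and 1448).

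The remaining hydrolase genes ranged from -0.40 (Man2b1, a mannosidase) to 0.50 (Gla, the alpha-galactosidase) in KO, apart from Neu1. The acid ceramidase gene Asah1 was at -0.35 and the sphingomyelinase gene Smpd1 at -0.30 (adjusted p = 0.142 and 0.417). Grn, the progranulin gene, was at 0.37 (adjusted p = 0.255), with KO at 0.936 of WT within replicate 1 and 1.78 times WT within replicate 2. Gaa, Lipa, Tpp1, Ppt1, Fuca1 and the cholesterol carrier gene Npc2 lay between -0.24 and 0.27.

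Of the 7 membrane proteins and regulators, Tfeb alone passed the test in KO, and 0 passed in C54Y, beside 16.3% and 1.36% of all tested genes. Lamp1 had 15399 and 13949 normalized counts in WT, against 13974 and 14860 in C54Y and 16863 and 17947 in KO. Its KO libraries were above both WT libraries, at 0.25 (95% interval -0.03 to 0.52; adjusted p = 0.206), and C54Y was at -0.02. Cd63, a tetraspanin of late endosomes, had 6154 and 6870 in WT, against 4042 and 8145 in C54Y and 4474 and 8598 in KO. Both mutants were below WT within replicate 1 and above it within replicate 2, which left the KO fold change at -0.07 (95% interval -0.53 to 0.39).

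Scarb2, the receptor that carries glucocerebrosidase to the lysosome, had 2440 and 1287 normalized counts in WT, against 2098 and 1299 in C54Y and 1667 and 1312 in KO. The groups overlapped, and the KO value was -0.26 (95% interval -0.66 to 0.14). The cholesterol exporter gene Npc1 stood at -0.05 in KO and the calcium channel gene Mcoln1 at -0.21 (adjusted p = 0.888 and 0.447).

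None of the 5 proton pump genes was called in KO or in C54Y, beside 16.3% and 1.36% of all tested genes. An unadjusted p under 0.05 was seen for 2 and 1 of them, beside 31.1% and 12.3% of all tested genes. By edgeR and by DESeq2 with the replicate block the count was 0 as well, but it rested on the libraries used. Which of them limma called in KO changed with the KO library left out. In C54Y limma called Atp6v1h when either KO library was left out. Within replicate 1 all 5 were above WT in KO, from 0.01 (Atp6v1h) to 0.51 (Atp6v1a). Within replicate 2 Atp6v1h (-0.48) and Atp6v1a (-0.14) were below WT. The others lay there between 0.32 (Atp6v1b2) and 0.66 (Atp6ap1). Atp6v1b2, a subunit of the ATP-hydrolysing part, had 5340 and 7286 normalized counts in WT, against 6526 and 8875 in C54Y and 6993 and 9125 in KO. It was above WT in each mutant within both replicate numbers, with KO at 0.36 (95% interval 0.07 to 0.64; adjusted p = 0.0886) and C54Y at 0.29 (adjusted p = 0.401). Atp6v1h, another subunit of that part, had 4001 and 3141 in WT, against 3154 and 2410 in C54Y and 4024 and 2250 in KO. C54Y was lower than WT within both replicate numbers, at -0.36 (95% interval -0.73 to 0.01), while KO was lower within replicate 2 alone.

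Atp6ap1, an accessory subunit of the pump, had 3376 and 3232 normalized counts in WT, against 3167 and 4030 in C54Y and 4054 and 5093 in KO. Both KO libraries exceeded both WT libraries, at 0.46 (adjusted p = 0.0774). Atp6ap1, Gla and Lamp2 are on the X chromosome, where the 527 tested genes had a median of 0.59 in KO, against 0.02 over autosomal genes. Gla at 0.50 and Atp6ap1 at 0.46 lay near the X-linked median and Lamp2 at 0.04 below it. How far their values follow the chromosome was not tested. Atp6v0d1 and Atp6v1a stood at 0.31 and 0.18 in KO (adjusted p = 0.190 and 0.542).

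**Figure D3:**
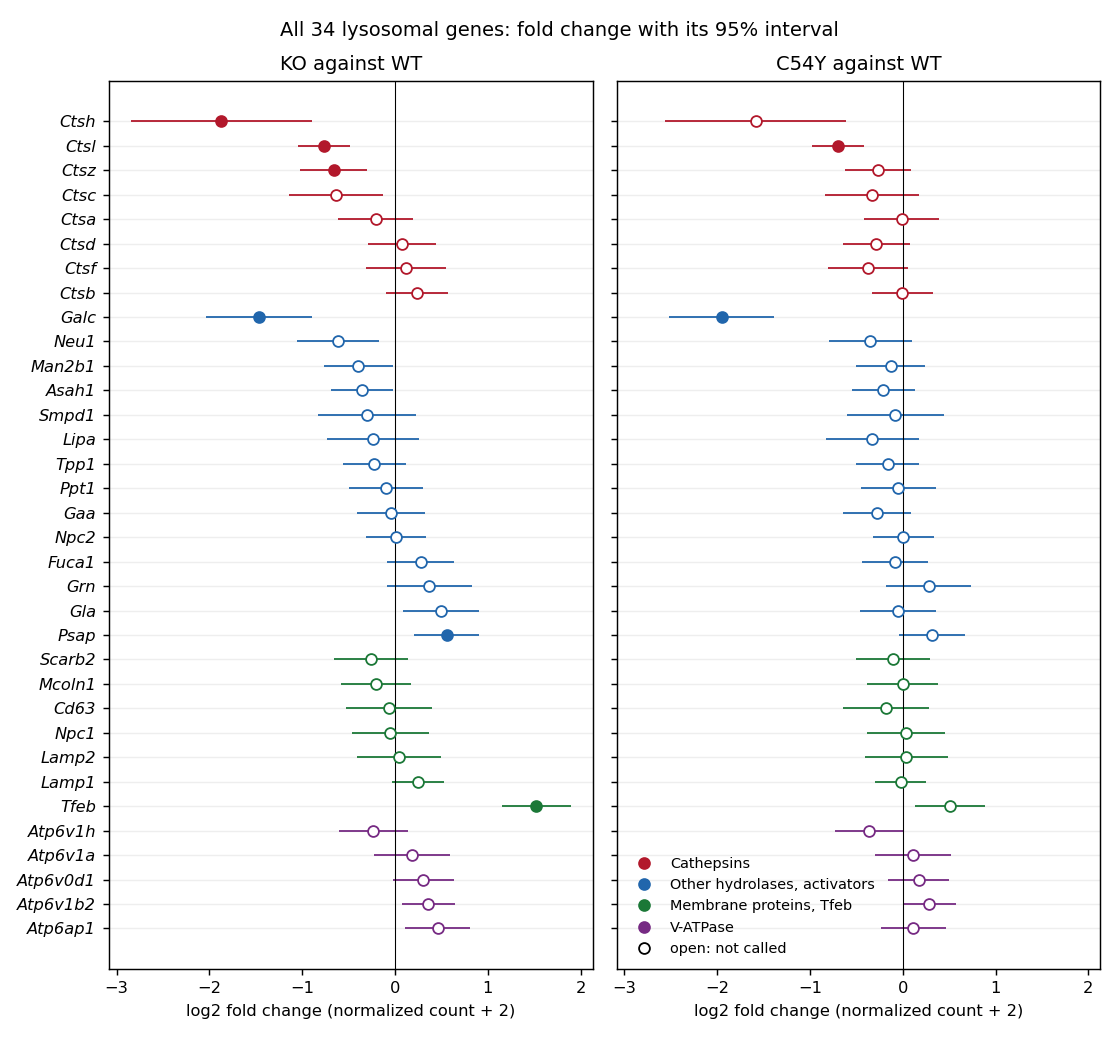
Log2 fold change of the 34 genes with its 95% interval, for KO against WT (left) and C54Y against WT (right), coloured by gene group and filled where the adjusted p was under 0.05. Ctsh, Ctsl, Ctsz, Galc, Psap and Tfeb are filled in KO, and Ctsl and Galc in C54Y.

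C54Y was set against WT to read the effect of the missense change, and 2 members were called, Ctsl and Galc, both down, beside 1.36% of all tested genes (0.962% higher, 0.399% lower). The members' median was -0.08, with -0.00 over all tested genes. In 6 of the 34 the C54Y libraries lay wholly below those of WT and in 0 wholly above, where 8.69% of all tested genes lay below and 9.3% above (18% in all). Those 6 were Ctsh, Ctsl, Lipa, Gaa, Galc and Man2b1. In KO 6 members lay wholly below WT and 5 above, with 13.6% of all tested genes on either side (27.2% in all). The comparisons share the WT libraries, so these counts are not independent of each other.

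Between KO and C54Y limma called 0 members, with 0.19% of all tested genes called (0.0458% higher, 0.144% lower). Of the 34, 4 had an unadjusted p under 0.05, namely Tfeb, Gla, Ctsz and Ctsf, beside 15.4% of all tested genes. The count was 0 by edgeR and 1, Tfeb, by DESeq2. Ctsf, a cysteine protease gene, stood at 0.49 (adjusted p = 0.270) and Gla at 0.54 (adjusted p = 0.209), both higher in KO. The libraries of these genotypes did not overlap for 5 members higher and 3 lower in KO, beside 8.64% and 8.84% of all tested genes (17.5% in all). The sign agreed between replicate numbers for 22 of 34, beside 59% of all tested genes.

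How the mutants compared with WT depended on the replicate number for many members. In C54Y, 28 of the 34 were below WT within replicate 1 and 14 within replicate 2, beside 7234 and 7892 of all 15287 tested genes. In KO the numbers were 22 and 14, beside 6257 and 7997 of all tested genes, and the members' median was -0.26 within replicate 1 and 0.12 within replicate 2, against 0.12 and -0.02 over all tested genes. The sign agreed between replicate numbers for 20 of 34 members in KO and for 20 in C54Y, beside 65.6% and 66.1% of all tested genes. With 1 library of each genotype per replicate number, this difference between replicate numbers could not be tested.

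**Figure D4:**
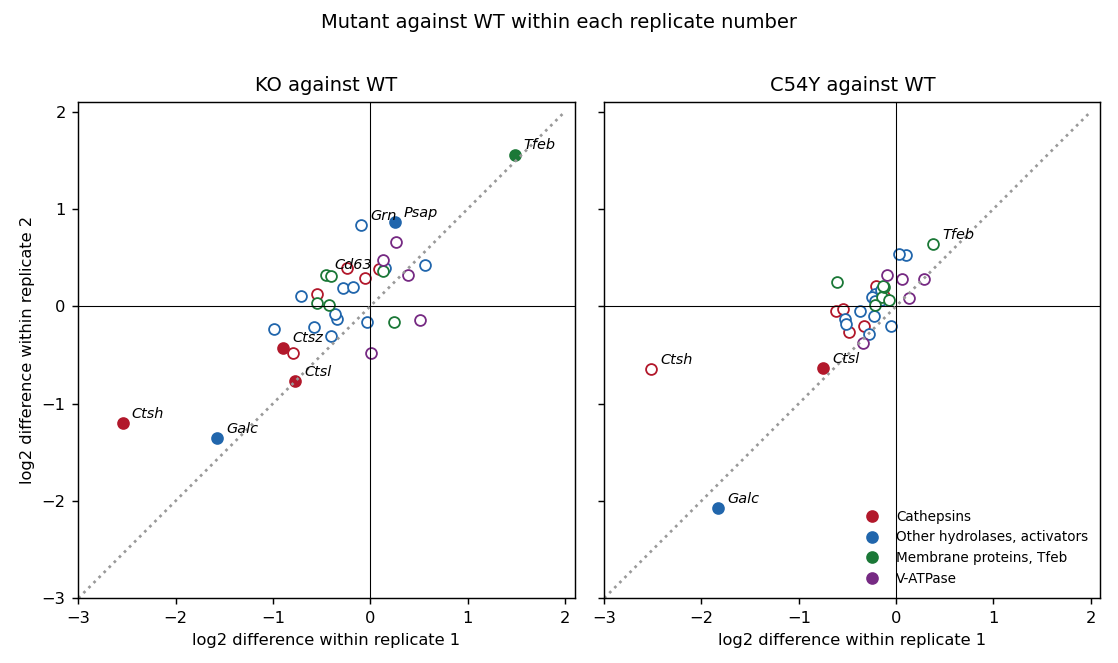
Log2 difference between mutant and WT within replicate 1 (x axis) and within replicate 2 (y axis) for each of the 34 genes, filled where called, with a dotted line of equality. Tfeb, Ctsl and Galc lie near the line in KO, while Ctsh was lowered more within replicate 1 and Grn and Cd63 changed sign.

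The replicate numbers themselves separated most members. In the same fit, 23 of 34 differed between replicate 2 and replicate 1 (13 higher and 10 lower in replicate 2), beside 64.9% of all tested genes (32% higher, 32.8% lower). Lamp2, a lysosomal membrane glycoprotein, had 2765, 2541 and 3272 normalized counts in the replicate 1 libraries of WT, C54Y and KO, and 387, 444 and 346 in those of replicate 2. The replicate numbers did not overlap and the genotypes did: the difference between replicates was -2.86 ± 0.16 (adjusted p = 1.22e-06), and KO against WT was 0.04 (95% interval -0.41 to 0.49). Asah1 (-2.02) and the pump gene Atp6v1a (-1.67) were also far lower in replicate 2, while Tfeb (0.86), Atp6v0d1 (0.85) and Ctsz (0.83) were higher. Markers of other cells moved with the replicate number too: the 9 called of 11 tested fibroblast markers and the 5 of 5 tested macrophage markers were all higher in replicate 2. Their part in the members' replicate differences was not tested.

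Endoderm markers moved with genotype. The 14 summed to 63018 and 39750 normalized counts in WT, against 31830 and 29752 in C54Y and 25055 and 31332 in KO. Of 12 tested, 11 were called lower in KO and 8 in C54Y, beside 7.41% and 0.399% of all tested genes. Among them were the endocytic adaptor gene Dab2 at -2.79 and -1.79 and the receptor gene Cubn at -3.84 and -2.43. Sparc, the most abundant marker, overlapped between groups: 17247 and 14659 in WT, against 10043 and 15321 in C54Y and 11369 and 18264 in KO. Afp and Ttr, markers of visceral endoderm, were at or below 5.98 in all libraries. Ctsl, Ctsh, Galc, Lipa and Man2b1 were lower in all 4 mutant libraries than in both WT libraries. The other members were not, among them Ctsz, which was called in KO. Lipa and Man2b1 were not called in either mutant. Of all tested genes 13.6% lay wholly below WT in KO and 8.69% in C54Y, each mutant counted alone. The share that lay below WT in both mutants was not counted. In bulk samples fewer cells of a type and less RNA per cell cannot be told apart, and the part of endoderm cells in the falls was not tested. The 6 macrophage markers in the table summed to between 47.8 and 71.7 in replicate 1 and between 448 and 547 in replicate 2, with Ptprc at or below 3.90 in every library. Most of the replicate 2 sums came from Lyz2, at 329, 396 and 369 in WT, C54Y and KO. In replicate 1 Lyz2 had 8.96, 13.6 and 10.4. Among 8 stem cell markers 6 rose in KO and 1 in C54Y, beside 8.9% and 0.962% of all tested genes. Among 11 tested fibroblast markers 1, Mmp2, was called lower in KO, beside 7.41% of all tested genes. Within replicate 1, 9 of these 11 were below WT in KO (median -1.07), and 6 were within replicate 2 (median -0.04). Over all tested genes those medians were 0.12 and -0.02. The part of feeder cells in the members' KO values was not tested.

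The genes with TCACGTGA in a window (Atp6v0d1, Atp6v1a, Ctsa, Ctsd, Gla and Mcoln1) lay between -0.21 and 0.50 in KO, with 0 of 6 called by limma, by edgeR or by DESeq2 and 1, Gla, at an unadjusted p under 0.05. Which of them were called changed with the KO library left out, and their directions differed. Within replicate 1 KO was above WT for Gla (0.56), Atp6v1a (0.51) and Atp6v0d1 (0.13). It was below WT there for Ctsa (-0.55), Mcoln1 (-0.43) and Ctsd (-0.24). Within replicate 2 only Atp6v1a (-0.14) was below WT. For Ctsa the TCACGTGA lay in a window whose start site is downstream of the start of its main GENCODE transcript. The Ctsa window nearer that main start held no match. Of the 22 members whose windows lacked TCACGTGA, 2 were called up and 3 down, and Ctsh had no window. Over all tested genes with a window, 222 held TCACGTGA, of which 3.15% were called up and 3.60% down in KO, against 9.14% and 7.24% of those without it. For the core CACGTG the shares lay closer together: of 1290 tested genes that held it 9.85% were called up and 6.20% down, against 8.92% and 7.29% of those without it.

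Another 113 lysosomal genes, listed by role, were read from the same fit, and 104 of them were tested. In KO 8 rose and 9 fell (16.3% of all genes called, as given above), and in C54Y 1 rose and 2 fell (1.36% of all genes called). Cln3, a membrane protein whose loss causes a childhood neuronal storage disease, had 1185 and 1279 normalized counts in WT, against 265 and 261 in C54Y and 262 and 288 in KO. All 4 mutant libraries lay far below WT and close to one another, with KO at -2.16 ± 0.19 (adjusted p = 0.000446) and C54Y at -2.22 ± 0.19 (adjusted p = 0.00172).

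Of 26 other hydrolases, 3 rose and 3 fell in KO. Gusb, the beta-glucuronidase gene, fell in both mutants (-2.11 in KO and -1.98 in C54Y), and Manba, the beta-mannosidase gene, rose in KO (1.41, adjusted p = 0.00290). Naglu (-1.19) and Arsa (-0.96), which encode enzymes of heparan sulfate and sulfatide breakdown, were not called without WT replicate 1 (0.217 and 0.145). Of 23 other membrane proteins 1 rose and 3 fell in KO: Laptm5 rose (1.75 ± 0.14), and beside Cln3 the genes Laptm4b (adjusted p = 0.00387) and Mcoln3 fell. Mcoln3, a relative of Mcoln1, went from 266 and 48.9 normalized counts in WT to 17.4 and 1.27 in KO, so its fold is imprecise.

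Among 15 other proton pump genes Atp6v0a4, a subunit known from kidney, rose in KO (1.78 ± 0.25, adjusted p = 0.00270) and Tcirg1 fell (-0.64), a call lost without 5 of the 6 libraries in turn. Of 16 sorting genes the receptor gene Sorl1 rose in KO (1.06) and in C54Y (0.86), Ap1m1 rose in KO (0.65), and the receptor gene Sort1 fell in KO (-0.72). Without WT replicate 1 the Sort1 call was lost (0.184), and the Ap1m1 call was lost without WT replicate 1 or WT replicate 2 (highest adjusted p = 0.114). The Sorl1 call in C54Y was lost without WT replicate 2, C54Y replicate 1 or C54Y replicate 2 (highest adjusted p = 0.996). Of 12 regulators, Mitf, a relative of Tfeb, rose in KO (1.71 ± 0.30, adjusted p = 0.00693), from 117 and 15.4 normalized counts in WT to 442 and 48.4. Tfec, the rarest relative, was called down and had 31.4 and 12.9 in WT against 3.47 and 0 in KO. The 12 tested proteases and cystatins had 0 called in KO by limma, with 4 at an unadjusted p under 0.05, beside 31.1% of all tested genes.

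**Figure D5:**
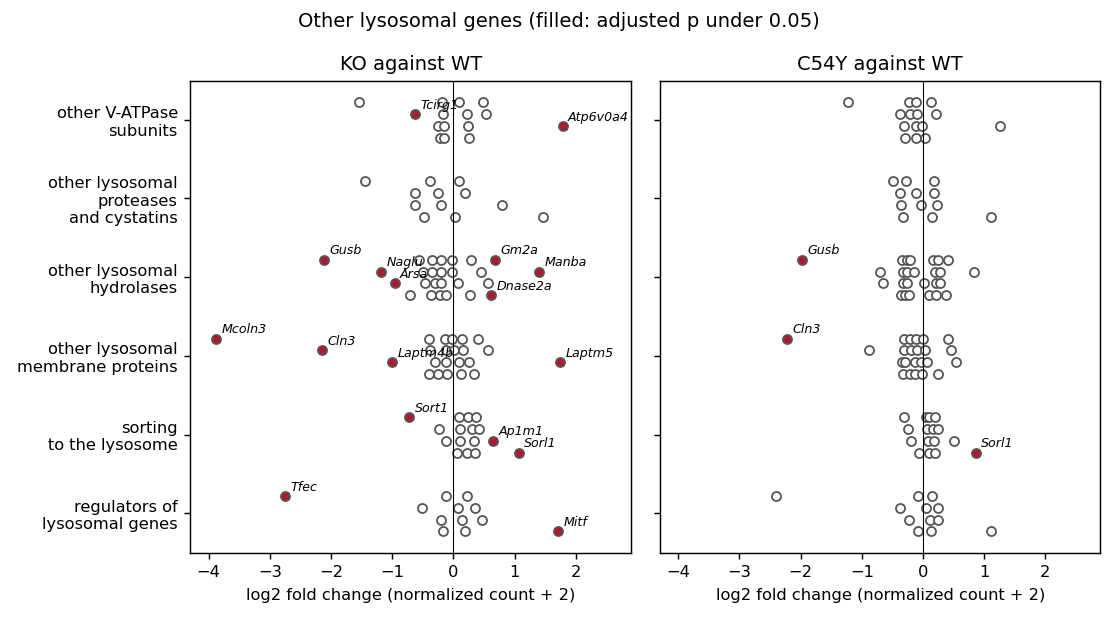
Log2 fold change of the 104 other tested lysosomal genes by role, for KO against WT (left) and C54Y against WT (right), with genes at an adjusted p under 0.05 filled and named. Gusb and Cln3 stand near -2 in both mutants, and 17 genes are filled in KO and 3 in C54Y.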

How the data were processed

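The authors deposited normalized counts (a signal, read counts scaled by a size factor for each library). DESeq2, HTSeq, TopHat2 2.1.0, Trimmomatic, CASAVA and build mm9 are named in the submitters' processing notes; annotation and strand setting are not given in the sources used here. Every value was a whole multiple (within 1e-06) of its column's smallest, 100% of values, so whole reads were recovered, 31774656 to 46772996 per library.

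Differences were fitted with limma 3.58.1 (trend, robust; R 4.3.3) on log2(normalized count + 2) over all 6 libraries and 15287 genes, with replicate number as a block. Fold changes are on that scale, and p-values were Benjamini-Hochberg adjusted over all genes; "called" means an adjusted p under 0.05. Intervals and SE are limma's. Deviations of same-numbered libraries had correlations between 0.869 and 0.907 over genes in the 3 pairs of genotypes. With 2 numbers and no label that says what they mark, the pairing is a hint from the data; the block was used because mutants were compared with WT within each number. The fit was also run on simulated data in which the replicate difference was the same in every genotype. That setting cannot show how calls hold where a mutant's difference from WT varies with the replicate number.

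Members and lists were chosen with earlier results of these data known. Library values are given for Ctsl, Tfeb, Ctsb, Ctsd, Lamp1, Lamp2, each called member and the extremes of each gene group in each mutant; other lysosomal genes are named where called, at most 4 per list; values of Neu1 and markers were added after they were seen. Alternatives were edgeR 4.0.16 and DESeq2 1.42.0 on recovered reads, TMM factors, pseudocounts of 0.5 and 10, other filters, no block, and each library left out. Adgre1 had no matching symbol. Without strand, reads of Ctsa, Ctsb and Lamp1 cannot be told apart from overlapping Pltp and Neurl2, Fdft1 and Grtp1. Ctsd shares 808 of its 2127 exonic bases (38.0%) with Gm49369 on the same strand, so its level is uncertain whatever the strand setting. Transcript lengths come from GENCODE M21 on GRCm38, not the authors' build.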

Additional observations from a re-analysis of the deposited data

How the results depend on the processing

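Without the replicate block limma called 0 genes and 0 members in KO against WT, in C54Y against WT and in KO against C54Y. DESeq2 with the block called 479 genes (208 by limma) and 3 members (2) in C54Y against WT, where it added Ctsh, and, in KO against C54Y, 452 genes (29) and 1 member (0). With 1 library left out, KO against WT gave 1749 to 4861 genes and 5 to 15 members (6 with all libraries). C54Y against WT gave 69 (without C54Y replicate 2) to 1818 genes and 0 (without C54Y replicate 2) to 7 members, and KO against C54Y gave 7 to 2831 genes and 0 to 7 members. The highest of these counts came without a KO library; a lone library is assumed to vary like the others, and the cause was not tested. Replicate 2 against replicate 1 gave 8130 to 10468 genes and 18 to 24 members. The members' median ranged from -0.19 to 0.05 in KO and from -0.23 to 0.01 in C54Y. Of 210 repeats of the named members' values in each comparison, 193 in KO and 195 in C54Y kept their side of the threshold; the called members kept their direction in all of them. Pseudocounts and filters changed no call of a member between genotypes. Reads limit the rarest members most: Ctsh and Galc had as few as 43 and 47 reads in a library.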
